A study of Homo sapiens with 8 samples.

Results

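ATF4 knockdown in unstressed cells was read from 2 of the 8 arrays of the series: A375 cells transfected with an siRNA against ATF4 (siATF4) and A375 cells transfected with a nontargeting siRNA (siCont), each in normal medium and each on 1 array. The pair was taken by its treatment labels. A375 is a human melanoma line that carries an activating BRAF mutation, a background that every array shares. Cells were grown in RPMI medium with serum, and RNA was read on Affymetrix expression arrays. Of the other 6 arrays, 3 are used for comparison: siATF4 and siCont cells in 10 uM vemurafenib, a BRAF inhibitor, for 4 h, and siCont cells in DMSO for 4 h. A further pair, siBRAF cells without glutamine for 18 h and siBRAF cells in normal medium, serves as a measure of how far 2 other arrays of the set differed.

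ATF4 is a basic leucine zipper transcription factor. Its mRNA is translated preferentially when the initiation factor eIF2 is phosphorylated, as happens when amino acids run short or unfolded protein accumulates, and the protein then raises genes that make, import and charge amino acids. It binds DNA as a dimer with C/EBP and AP-1 family partners at C/EBP-ATF response elements. The knockdown in normal medium addresses which genes depend on ATF4 without an added stress.

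The response element motif TGATGNAA, on either strand, was looked for in RefSeq promoter windows (GRCh38.p14) that run from 250 bases before to 50 bases after a transcript start. Of 27305 genes with a window listed, 1217 held it in at least 1 window (4.46%), and of 10635 such genes among those measured above the filter described below, 317 did (2.98%). Of the genes at least 2-fold lower with siATF4, 39 had a window and 4 of these held the motif. Of those at least 2-fold higher, 47 had a window and 0 held it. A match describes letters only and does not show binding. The 4 windows are printed because their genes were at least 2-fold lower with siATF4, 3 of them encoding an amino acid enzyme or a leucine zipper factor. They lie at chr7:97872359-97872658 (ASNS, minus strand), chr12:24949052-24949351 (BCAT1, minus strand), chr14:75427772-75428071 (JDP2, plus strand) and chr15:79971147-79971446 (BCL2A1, minus strand). Each is written 5′ to 3′ on the strand of the gene, with the motif in capitals.
ASNS: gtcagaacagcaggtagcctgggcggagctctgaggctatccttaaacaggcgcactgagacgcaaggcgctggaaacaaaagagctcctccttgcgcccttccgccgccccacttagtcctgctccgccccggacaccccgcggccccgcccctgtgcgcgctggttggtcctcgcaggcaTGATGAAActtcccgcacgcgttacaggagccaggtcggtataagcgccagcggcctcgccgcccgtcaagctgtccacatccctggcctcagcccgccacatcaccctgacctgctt
BCAT1: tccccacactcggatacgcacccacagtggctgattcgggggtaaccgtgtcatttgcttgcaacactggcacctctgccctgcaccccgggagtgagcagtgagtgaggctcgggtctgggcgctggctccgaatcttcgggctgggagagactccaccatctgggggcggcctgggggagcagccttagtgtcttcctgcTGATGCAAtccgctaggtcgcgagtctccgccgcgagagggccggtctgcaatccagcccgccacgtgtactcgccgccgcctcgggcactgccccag
JDP2: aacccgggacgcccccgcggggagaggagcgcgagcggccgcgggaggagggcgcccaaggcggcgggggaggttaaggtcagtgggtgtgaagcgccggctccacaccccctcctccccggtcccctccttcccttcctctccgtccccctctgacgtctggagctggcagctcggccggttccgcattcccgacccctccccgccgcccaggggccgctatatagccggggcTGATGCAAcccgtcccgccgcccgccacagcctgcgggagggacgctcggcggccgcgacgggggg
BCL2A1: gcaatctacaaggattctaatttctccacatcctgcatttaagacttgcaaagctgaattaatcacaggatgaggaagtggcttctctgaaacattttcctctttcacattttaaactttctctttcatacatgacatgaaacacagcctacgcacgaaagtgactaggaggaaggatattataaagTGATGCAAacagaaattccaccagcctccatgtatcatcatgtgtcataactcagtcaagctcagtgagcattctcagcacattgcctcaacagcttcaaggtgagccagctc
The match begins 68 bases before the start in ASNS, 48 in BCAT1, 16 in JDP2 and 63 in BCL2A1. It reads TGATGAAA in ASNS and TGATGCAA in the other 3. The intensities of JDP2 and BCL2A1 were below the array median with siATF4.

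The target itself was lower. ATF4, which has 1 probe set, had an intensity of 534 with siATF4, against 1814 with siCont. That is a difference of -1.76 in log2(intensity + 1) (3.40-fold) and the second most negative of the genes compared. All differences below are on this log2 scale, siATF4 minus siCont, and come from single arrays. With 1 array per condition they carry no replicate check, and no p-value could be computed.

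A gene was counted in the comparison if its higher value of the 2 reached the array median, and it was called different at 2-fold or more. Of 13172 genes, 62 were at least 2-fold higher (0.471%) and 51 at least 2-fold lower (0.387%), ATF4 among them. The median difference of all 13172 genes was 0.03, the SD across genes was 0.28, and 95.5% lay within 1.5-fold. For scale, the siBRAF arrays without and with glutamine, which share no array with this pair, had an SD across genes of 0.19, with 6 of 13139 genes at least 2-fold higher (0.0457%) and 10 lower (0.0761%). Both of those arrays carried the same siRNA, so that pair holds no difference between siRNAs, unlike siATF4 against siCont. The 2 arrays had median intensities of 14.8 with siATF4 and 15.1 with siCont. The actin control read 0.20 higher at its 3′ than at its 5′ end with siATF4 and 0.16 higher with siCont, and 18 spike-in control probe sets differed by a median of -0.00. The 3 probe sets of the thr spike-in were lower by 0.80 to 1.08, and the part of this in any result was not tested.

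**Figure D1:**
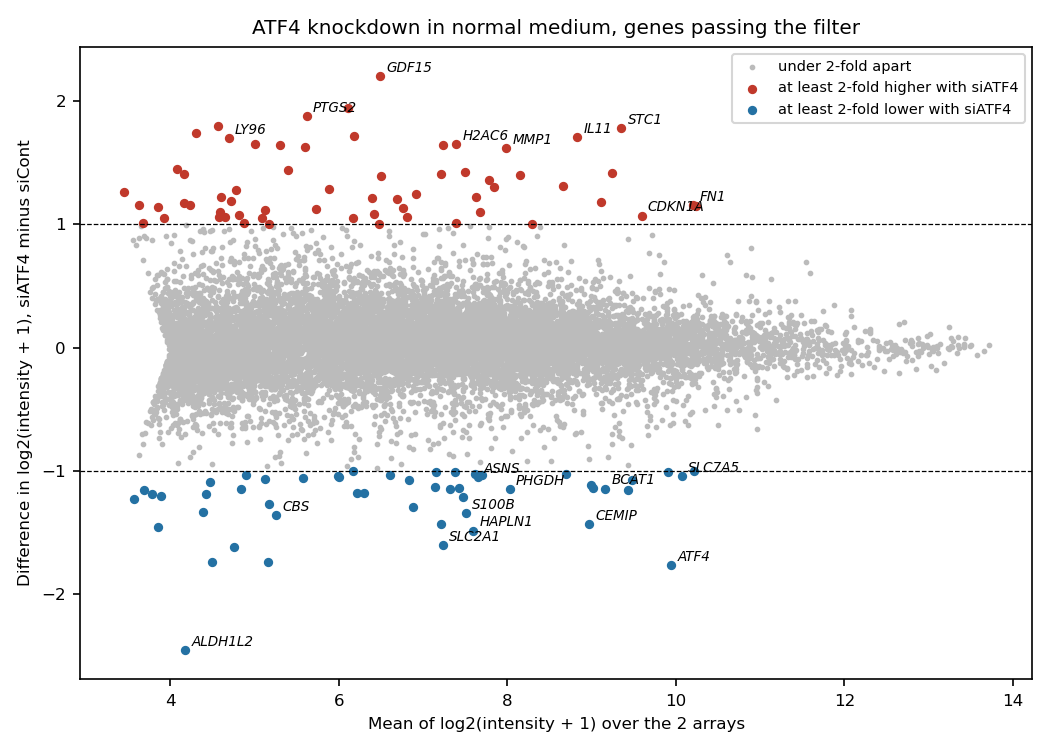
Difference between siATF4 and siCont cells in normal medium against mean level for the 13172 genes that passed the filter, both on the log2(intensity + 1) scale, 1 array per condition. Red points are the 62 genes at least 2-fold higher and blue points the 51 at least 2-fold lower with siATF4, and dashed lines mark 2-fold. ALDH1L2 is the lowest point, at -2.46, and GDF15 the highest, at 2.21.

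The labelled lineage was visible in part in its markers, whose part in the results was not tested. Of 12 melanocyte lineage markers 11 were on the array, and 8 were above the array median with siATF4 and 9 with siCont, including the transcription factors MITF (244 with siATF4, 254 with siCont) and SOX10 (497 and 776). The pigment genes MLANA and TYRP1 were below the array median on both arrays, and no marker was at 0. The summed intensity of these markers was 1629 with siATF4 and 2214 with siCont. Of 9 leukocyte markers 4 were above the array median with siATF4 and 5 with siCont, and they summed to 260 and 230. The T cell gene CD3E read 21.04 and 31.29, and PTPRC, found on all leukocytes, 2.66 and 2.89. Of 10 fibroblast markers 5 and 6 were above the median, and they summed to 314 and 310. Of 9 keratinocyte and epithelial markers 5 were above it on each array. These summed to 1921 and 1774, most of it KRT10 (1532 and 1371), while EPCAM read 5.08 and 4.78. Both arrays are labelled as the same cell line, A375. In bulk RNA, fewer cells with a marker and less of its RNA per cell cannot be told apart.

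Enzymes that make serine and glycine and feed one-carbon metabolism were mostly lower. Of 14 measured above the filter 12 were lower and 2 higher, with a median of -0.31, against 0.03 and 44.6% lower over all genes. At least 2-fold lower were 2 of the 14 and higher 0. ALDH1L2, the mitochondrial enzyme that oxidises 10-formyl-tetrahydrofolate, read 6.7 with siATF4, against 41.3 with siCont, a difference of -2.46. The siATF4 value lies below the array median, and the difference became -1.34 with 16 added before the log and -1.14 as the mean of all its probe sets. PHGDH, which opens serine synthesis from glycolysis, read 175 with siATF4, against 388 with siCont (difference -1.15).

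The other steps of the pathway were less far apart. GLDC, the decarboxylase of the glycine cleavage system, was just outside the line, at 47.9 with siATF4, against 94.0 with siCont (-0.96). PSAT1, the second enzyme of serine synthesis, was at 797 and 1115 (-0.48), and PSPH, the last one, at 199 and 209 (-0.07). In this pair of arrays the entry enzyme of serine synthesis was thus lowest and the last enzyme nearly level. The other PSAT1 probe set read -0.72. In vemurafenib no such order was seen, with PHGDH at -1.86, PSAT1 at -1.65 and PSPH at -1.70. In the mitochondrial folate branch MTHFD2 differed by -0.47 and SHMT2 by -0.30. MTR (-0.33), AMT (-0.33), MTHFD1 (-0.17), GCSH (-0.17) and the thymidylate synthase gene TYMS (-0.16) were lower by smaller amounts, and ALDH1L1 (0.03, and -0.58 with its probe set brightest over 5 arrays) and MTHFD2L (0.20) were higher. SHMT1 and MTHFD1L did not pass the filter.

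Asparagine, aspartate, proline and transaminase genes were split. Of 14 measured, 7 were lower and 7 higher with a median of -0.03 that was at or above 0 under other settings, but 2 were at least 2-fold lower. ASNS, which makes asparagine from aspartate and glutamine, read 138 with siATF4, against 288 with siCont (-1.05). BCAT1, the cytosolic branched-chain aminotransferase, read 384 with siATF4, against 850 with siCont (-1.14). All 4 probe sets of BCAT1 were lower, by 0.97 to 1.58, whereas the other probe set of ASNS was dim on both arrays and read 0.07. PYCR1, which closes proline synthesis, was at -0.46, and the urea cycle gene ASL at -0.45. On the other side stood ASS1 (0.56, below the array median with siCont), BCAT2 (0.27), GLUL, the glutamine synthetase (0.21), GOT1 (0.13) and GOT2 (0.10). Between them lay GPT (-0.25), PYCR3 (-0.14), OAT (-0.08), ALDH18A1 (0.02) and GLUD1 (0.06), and PRODH did not pass the filter.

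Of the 2 enzymes of transsulfuration, which carries sulfur from homocysteine to cysteine, CBS was lower and CTH a little higher. CBS read 22.9 with siATF4, against 60.2 with siCont (-1.36), and CTH read 68.9 and 55.6 (0.30). The CTH value lay below the 95th percentile of all genes, 0.46. A second shared probe set of CBS read -1.28. Without probe sets shared between transcripts CBS rested on 1 dim probe set, at -0.15. Of the 14 cysteine and glutathione genes 11 were higher and 3 lower, with a median of 0.12 and CBS alone past 2-fold. The glutathione-degrading enzyme CHAC1, a stress gene, differed by -0.40. CDO1, which oxidises cysteine, was the highest of the list, at 0.50.

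**Figure D2:**
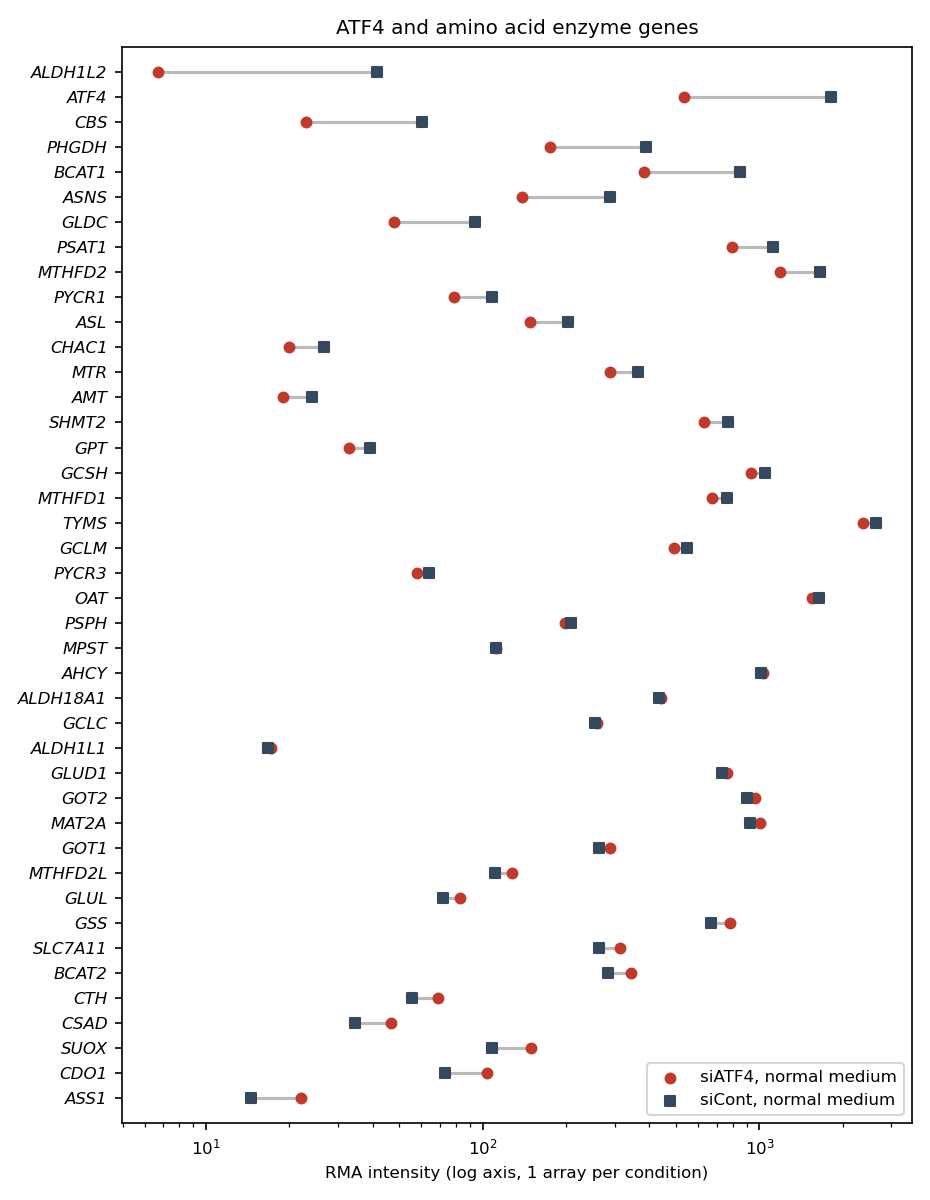
Intensity of ATF4 and of the amino acid enzyme genes that passed the filter, on a log axis, in siATF4 cells (red circles) and siCont cells (dark squares) in normal medium, 1 array each. Genes run from the most negative difference at the top to the most positive at the bottom. ALDH1L2, ATF4, CBS, PHGDH, BCAT1 and ASNS are the 6 genes with a difference of 2-fold or more, all lower with siATF4.

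Amino acid transporters were split. Of 23 measured, 12 were lower and 11 higher, with a median of -0.06 that was above 0 under other settings, and 1 was past 2-fold. That one was SLC7A5, the light chain of the leucine exchanger LAT1, at 748 with siATF4, against 1544 with siCont (-1.05). Its heavy chain SLC3A2 read 365 and 682 on the same arrays (-0.90), so both subunits of this exchanger were near 2-fold lower. The neutral amino acid carriers SLC1A4 (-0.72) and SLC38A1 (-0.64) followed. The cystine carrier SLC7A11, which pairs with the same heavy chain, was at 313 and 262 (0.25), and SLC1A3 (0.34) and SLC25A22 (0.29) were the highest.

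Cytosolic aminoacyl-tRNA synthetases, which charge tRNAs, were lower in 16 of 17, by small amounts, against 44.6% lower over all genes. The median was -0.18 and 0 passed 2-fold. YARS1 read 693 with siATF4, against 1084 with siCont (-0.64), although its probe sets not shared between transcripts gave 0.19. GARS1 read 953 and 1383 (-0.54), and WARS1 398 and 568 (-0.51). FARSA (-0.00), HARS1 (-0.00) and VARS1 (0.01) were level between the arrays. Of 16 synthetase genes with a promoter window, 7 held the motif TGATGNAA (43.8%). So did 6 of 23 transporter genes (26.1%) and 1 of 13 serine and one-carbon genes (7.69%), MTHFD1L, which did not pass the filter. These list counts took members whether or not they passed the filter. Over all genes with a window the share was 4.46%, and over the genes compared 2.98%. Most genes with the motif in the amino acid and stress lists were lower, among them SLC3A2 (-0.90), SLC1A4 (-0.72) and SLC38A1 (-0.64). Some were higher, since SLC1A3 (0.34), ATF3 (0.20), SLC1A5 (0.17) and GOT1 (0.13) also held the motif. The synthetases that held it were GARS1, AARS1 (-0.45), CARS1 (-0.33), TARS1 (-0.28), IARS1 (-0.24), NARS1 (-0.18) and MARS1, whose level was not analysed here.

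Stress genes downstream of ATF4 and its partner CHOP showed no common direction in normal medium. Of 33 measured, 16 were lower and 17 higher with a median of 0.16 (-0.01 with unshared probe sets). JDP2 was past 2-fold on the lower side, GDF15 and CDKN1A on the higher. JDP2 is a leucine zipper repressor of AP-1 sites, and was at 8.7 with siATF4, against 21.4 with siCont (-1.20). Its siATF4 value lies below the array median, and the difference became -0.60 with 16 added. Next were the secreted glycoprotein gene STC2 (-0.89, and -0.28 without shared probe sets), the stress regulator NUPR1 (-0.87), the mTORC1 inhibitor DDIT4 (-0.61), the translation repressor EIF4EBP1 (-0.47), CEBPG (-0.47) and the pseudokinase TRIB3 (-0.42). NUPR1 was dim, at 8.1 with siATF4, below the array median, and 15.7 with siCont. DDIT3, which encodes CHOP, was level, at 101 with siATF4 and 105 with siCont (-0.05).

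The higher side of that list held some genes that are also in other lists. GDF15, a stress-induced cytokine, had the largest positive difference of all genes, at 192 with siATF4, against 40.8 with siCont (2.21). Only 1 of its 3 probe sets was above the filter, and the mean of the 3 was 0.72. The 1 above the filter is of the kind shared between transcripts. Its only unshared probe set was dim on both arrays and read -0.05. CDKN1A, the cell cycle inhibitor p21, read 1118 with siATF4, against 532 with siCont (1.07), and TXNIP, an arrestin-like inhibitor of glucose uptake, read 371 and 204 (0.86). GDF15 and CDKN1A are also in the p53 target list, and a part of p53 in these differences was not tested. Of 21 p53 targets 18 were higher and 3 lower, with a median of 0.30, against 0.03 and 55.3% higher over all genes. MDM2, the ubiquitin ligase that limits p53, was at 0.53. In vemurafenib the list had a median of 0.09, with 0 past 2-fold. Autophagy and lysosome genes were higher in 23 of 25, beside the same 55.3% over all genes, with a median of 0.25. They were led by ATG10 (0.58), GABARAPL1 (0.49) and ULK2 (0.49, below the array median with siCont), with 0 past 2-fold.

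Partners and relatives of ATF4 were mostly level. In the leucine zipper list of 40, 20 were lower and 20 higher, with a median of -0.01, and ATF4 and JDP2 were the 2 past 2-fold. CEBPD was at -0.63, JUND at 0.57, CREM at 0.47 and ATF5 at 0.40. The eIF2 kinases, phosphatase subunits and eIF2 factors had a median of 0.00, 10 of 20 lower, and lay between -0.26 (EIF2S2) and 0.34 (PPP1R15A). ER chaperones were lower in 14 of 19, beside 44.6% over all genes. Their median was -0.11 with 0 past 2-fold, and EDEM1 was lowest at -0.46.

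**Figure D3:**
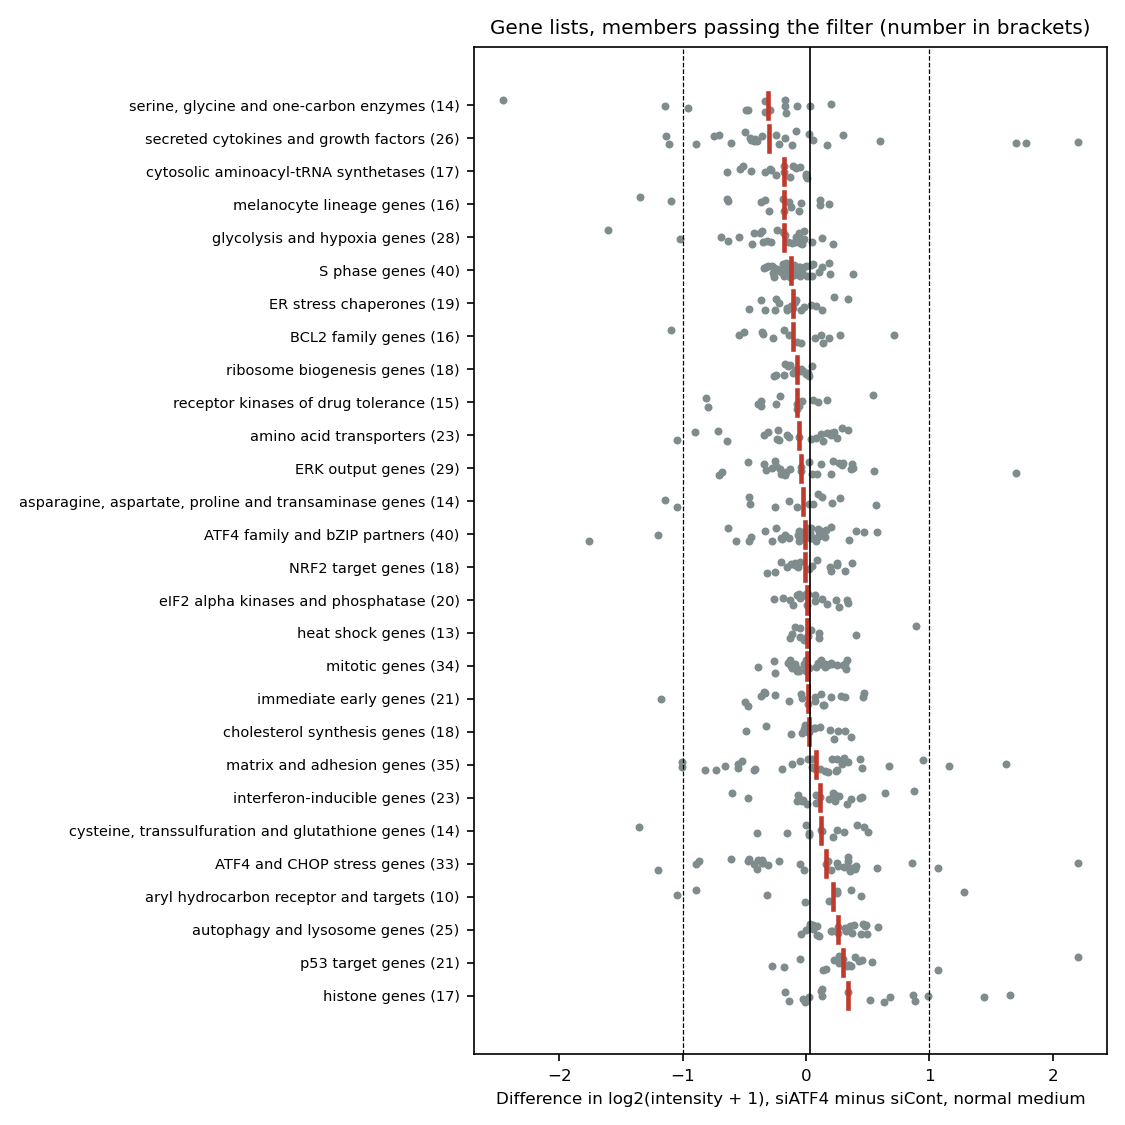
Differences between siATF4 and siCont cells in normal medium for the members of 28 gene lists that passed the filter, on the log2(intensity + 1) scale, 1 array per condition. Grey points are genes, red bars list medians, the solid line is the median of all genes (0.03) and dashed lines mark 2-fold. Medians run from -0.31 for serine, glycine and one-carbon enzymes to 0.34 for histone genes.

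Most glycolysis and hypoxia genes were lower, by small amounts. SLC2A1, the glucose transporter GLUT1, read 85.5 with siATF4, against 262 with siCont (-1.60), and its dimmer probe set, the only one not shared between transcripts, read -0.75. HK2, the hexokinase that traps glucose in the cell, read 290 and 591 on the same arrays (-1.02), while its other 2 probe sets, both dimmer, read -0.30 and -0.40. Of 28 glycolysis and hypoxia genes 25 were lower and 3 higher, against 44.6% lower over all genes. The median was -0.18, and only SLC2A1 and HK2 passed 2-fold. The hypoxia-responsive genes ADM (-0.69) and NDRG1 (-0.64) were next, and GAPDH was near level, at -0.06.

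The 20 lowest genes included HAPLN1, CEMIP and S100B. HAPLN1, which links hyaluronan to proteoglycans, read 115 with siATF4, against 323 with siCont (-1.48), and its 4 probe sets lay between -1.59 and -1.48. CEMIP, which takes part in hyaluronan breakdown, read 305 and 825 (-1.43). The cadherin gene CDH19 was at -1.43, the receptor phosphatase gene PTPRZ1 at -1.74, FAT3 at -1.46, ITGA9 at -1.27 and SCRG1 at -1.23. PTPRZ1, FAT3 and SCRG1 were below the array median with siATF4, and with 16 added they became -1.04, -0.72 and -0.54. S100B, a calcium-binding protein used as a melanoma marker, read 113 with siATF4, against 288 with siCont (-1.35, and -0.67 as the mean of its probe sets). The melanocyte list as a whole was lower in 13 of 16, beside 44.6% over all genes, with a median of -0.18. BCL2A1, a survival factor of the BCL2 family, was the other member past 2-fold (14.2 and 31.5, -1.09). It has 1 probe set, its siATF4 value lies below the array median, and it did not pass the filter in vemurafenib.

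The remaining genes among the 20 lowest were ARPP21 (-1.74), LINC01293 (-1.62), the collagenase MMP8 (-1.34), EIF4EBP2 (-1.29), the transcription factor NFATC2 (-1.21), PPP4R4 (-1.19, and -0.57 with 16 added) and PPFIA4 (-1.19). ARPP21 rested on 1 of its 6 probe sets, while the others were dim on both arrays and read between -0.17 and 0. LINC01293, MMP8, PPP4R4 and PPFIA4 were below the array median with siATF4. EIF4EBP2, a translation repressor and paralog of the ATF4-linked EIF4EBP1, read 74.6 with siATF4, against 184 with siCont. Its other 3 probe sets above the filter lay between -1.75 and -0.98. In the immediate early list EGR3 was the 1 gene past 2-fold (-1.18), and that list had a median of 0.01. Among secreted factors FST, the activin antagonist follistatin, read 349 with siATF4, against 769 with siCont (-1.14), and IGFBP3 read 345 and 749 (-1.12). The heparan sulfate proteoglycan gene GPC6 and the metalloproteinase inhibitor TIMP3 both differed by -1.01.

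The 20 highest genes included STC1 and IL11. STC1, a secreted glycoprotein hormone, read 1210 with siATF4, against 351 with siCont (1.78), and its 3 probe sets lay between 1.76 and 1.88. IL11, a cytokine of the IL6 family, read 820 and 251 (1.70). Both genes were well above the array median with either siRNA. PTGS2, the inducible cyclooxygenase, was at 1.88, and the metalloproteinases MMP10 and MMP1 were at 1.74 (0.99 with 16 added) and 1.62. The list of cytokines and growth factors was lower in 18 of 26, beside 44.6% over all genes. Its median was -0.30, with 3 members at least 2-fold higher and 2 lower. FN1, the matrix protein fibronectin, read 1763 with siATF4, against 791 with siCont (1.15).

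The rest of the 20 highest genes had varied roles. ID2, an inhibitor of helix-loop-helix factors, read 266 with siATF4, against 84.5 with siCont (1.65), and the homeobox gene MSX2 read 130 and 38.9 (1.72, and 1.12 as the mean of its probe sets). LY96, the TLR4 co-receptor MD-2, read 45.5 and 13.4 (1.70, and 1.07 with 16 added). The ion channel TRPA1 (1.66), the acetylcholine receptor subunit CHRNA9 (1.64), the R-spondin receptor LGR6 (1.63), the lipase LIPG (1.45), ANXA10 (1.42), TMEM158 (1.42) and the ephrin receptor EPHA7 (1.41) were between 1.41 and 1.66, and CLIC3 (1.80) and LURAP1L (1.95) were higher still. With 16 added CLIC3 was at 1.09 and LIPG at 0.77, and TRPA1 was at 0.87 as the mean of its probe sets. The unshared probe sets of MSX2 and TRPA1 were dim on both arrays and read 0.20 and 0.09. The histone genes H2AC6 and H2BC21 read 297 and 68.4 with siATF4, against 93.8 and 24.6 with siCont (1.65 and 1.44). Histone genes were higher in 13 of 17, beside 55.3% over all genes, with a median of 0.34, the highest of the 28 lists. H2BC4 was just under 2-fold, at 0.99. In the aryl hydrocarbon receptor list CYP1A1 was 2-fold or more higher (1.28), and SLC7A5 lower.

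The cell cycle and growth signalling lists had medians near 0, although several were lower in most members. Over all genes 44.6% were lower. S phase genes were lower in 31 of 40 with a median of -0.12, and mitotic genes in 14 of 34 with a median of 0.01, with 0 past 2-fold in either list. The S phase members lay between -0.34 (CDT1) and 0.38 (RFC5). ERK output genes had a median of -0.04, with 15 of 29 lower and IL11 alone past 2-fold, with SPRY1 lowest (-0.71), and MYC was at 82.3 with siATF4 and 133 with siCont (-0.68). Drug tolerance receptor kinases had a median of -0.07 with 11 of 15 lower, among them NGFR (-0.81), ERBB3 (-0.80) and AXL (-0.39), whereas EGFR was at 0.54. Interferon-inducible genes had a median of 0.12 with 0 of 23 past 2-fold, between CXCL10 (-0.60) and BST2 (0.88). Ribosome biogenesis genes were lower in 15 of 18 with a median of -0.08. Heat shock, NRF2 target and cholesterol synthesis genes had medians of 0.01, -0.01 and 0.02, with 0 past 2-fold, and HSPB8 was the highest of them (0.89). Matrix and adhesion genes had a median of 0.08, with 2 of 35 higher and 2 lower by 2-fold, and BCL2 family genes one of -0.10, with PMAIP1, the p53-inducible NOXA, at 0.71 and MCL1 at -0.51.

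Genes near the 2-fold line differed little across it. Just inside were FGF13 (-1.01), RAP1B and B3GNT7 on the lower side, and LYPD3 (1.01), SEL1L3 and GPRC5C on the higher. Just outside were GLDC (-0.96), MNX1 (-0.96) and PRR7-AS1 (-0.98), and HHIPL2 (0.99), H2BC4 (0.99) and RBM47 (0.98).

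Where a gene had further probe sets above the filter, these mostly pointed the same way. In each direction 35 genes had further probe sets, but dim ones were not counted. Some of the dim ones had the opposite sign, such as those of ASNS (0.07) and PTPRE (-0.19 and -0.31). No such share was computed for the genes not called. Among the 51 lower genes, 23 had at least 1 other probe set above the filter, 42 such probe sets in all, of which 40 were lower and 19 at least 2-fold lower. Among the 62 higher genes, 24 had 38 such probe sets, all 38 higher and 25 at least 2-fold higher. These read the same 2 RNA samples and are no replicates. A single probe set stood for 16 of the lower and 27 of the higher genes. Of the lower genes 11 were below the array median with siATF4, and of the higher genes 13 were below it with siCont.

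The same siRNA contrast in vemurafenib, on arrays not shared with this pair, gave the genes of both directions the following values. ATF4 itself read 757 with siATF4 there, against 4548 with siCont, a difference of -2.59 where normal medium gave -1.76. In siCont cells ATF4 was 0.93 higher in vemurafenib than in DMSO. The 2 settings thus differed in ATF4 as well, and its part in the values below was not tested. With siATF4 in vemurafenib, 27 of 13173 genes lay 2-fold or more above siCont (0.205%) and 96 below it (0.729%). Of the 62 genes higher in normal medium, 47 passed the filter there, with a median of 0.56, against 0.03 for all genes. Of the 47, 40 were higher and 7 lower, against 56.4% higher over all genes, and 8 were at least 2-fold higher. Of the 50 genes lower in normal medium other than ATF4, 43 passed, with a median of -0.11, 25 lower and 18 higher, and 10 at least 2-fold lower. Over all genes in that pair, 43.5% were lower. No test between the higher and the lower genes was made.

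Some of the lower genes were lower in both pairs and others were not. In vemurafenib ASNS read 256 with siATF4, against 2326 with siCont (-3.18), JDP2 45.9 and 509 (-3.44), and PHGDH 291 and 1060 (-1.86). ALDH1L2 was at -3.22, CBS at -1.96, BCAT1 at -1.18, and IGFBP3, GPC6 and FST at -1.35, -1.25 and -1.06. By contrast SLC2A1 was level there, at 246 with siATF4 and 253 with siCont (-0.04), as were ARPP21 (-0.03), FAT3 (0.04) and HAPLN1 (0.12). S100B (0.23), EIF4EBP2 (0.35) and CDH19 (0.47) were higher in that pair, and CEMIP just under 2-fold higher.

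Members of the amino acid and stress gene lists differed in how their values in the 2 media compared. CTH differed by 0.30 in normal medium and by -1.87 in vemurafenib, PSPH by -0.07 and -1.70, SLC7A11 by 0.25 and -2.35, CHAC1 by -0.40 and -2.96, and CEBPG by -0.47 and -2.09. Others stayed within 2-fold in both, such as AVIL, at -0.01 and -0.14, and DDIT3, at -0.05 and -0.66. The list of 33 stress genes had 14 members past 2-fold on the lower side in vemurafenib (median -0.53), and 1 in normal medium (median 0.16). With 1 array per condition, no test of the difference between the settings was possible. Of the higher genes, LY96 (1.33), CYP1A1 (1.17), H2BC21 (1.16), STC1 (1.12) and H2AC6 (1.11) were also at least 2-fold higher in vemurafenib. GDF15 was at 0.46 there, LURAP1L at 0.28, and IL11 at -0.49.

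**Figure D4:**
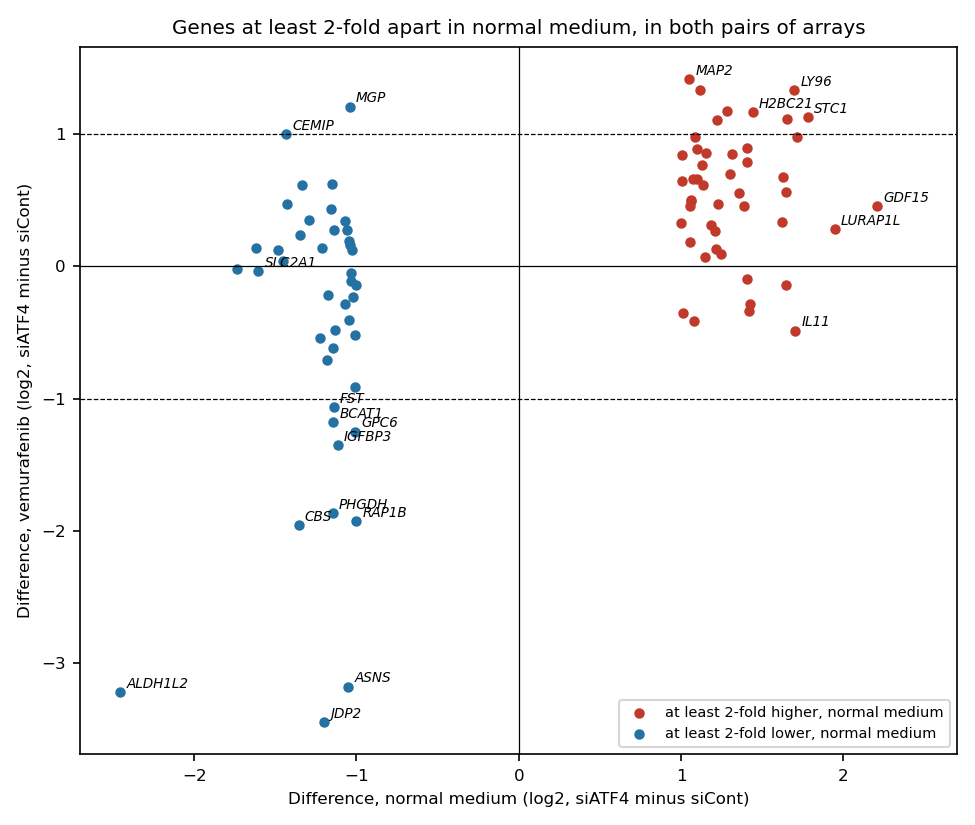
Differences between siATF4 and siCont cells in normal medium (horizontal) and in vemurafenib (vertical), both in log2(intensity + 1), for the genes at least 2-fold apart in normal medium that passed the filter in both pairs, ATF4 left out. Red points are the 47 higher and blue points the 43 lower genes, and dashed lines mark 2-fold in vemurafenib. Of the red points 40 lie above 0, and of the blue points 25 lie below it.

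Some of the lower genes were higher in vemurafenib than in DMSO in siCont cells, a comparison that shares no array with the pair in normal medium. Vemurafenib against DMSO left 113 of 13160 genes at least 2-fold higher (0.859%) and 253 lower (1.92%). Among the 43 lower genes that passed the filter there, 4 were at least 2-fold higher, namely JDP2 (3.06), ALDH1L2 (2.14), ASNS (2.08) and CBS (1.07), and 8 were at least 2-fold lower. CEMIP (-2.15), NFATC2 (-2.31) and FST (-2.11) were among these 8. The 43 genes had a median of -0.08, against 0.02 for all genes. Among the 42 higher genes that passed, 5 were past 2-fold in each direction (median -0.06). STC1 read 58.1 in vemurafenib, against 423 in DMSO (-2.84), and IL11 101 and 682 (-2.74), while ID2 was at 2.26.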

How the data were processed

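RNA of A375 cells was measured on Affymetrix arrays, 8 in all and 1 per condition. The deposited intensity values are linear, and the authors made them with RMA, per the submitters' processing notes; its settings and version are not given in the sources used here. Array medians ran between 14.8 and 15.5 in the 5 normal or glutamine-free cultures and between 36.4 and 36.9 in the 3 with DMSO or vemurafenib, so differences were taken only within a set. Of 54675 probe sets, 62 are controls, 41091 carry 1 gene symbol in the platform annotation, 1801 several and 11721 none listed. Only those with 1 symbol were used, giving 19775 genes.

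From the deposited intensity, log2(intensity + 1) was computed, and a fold change on this scale understates the change of low genes. For each gene the probe set brightest on average across all 8 arrays was taken, and the gene entered a comparison if its higher value reached the array median. No test was run, since there are no replicates. The number of arrays limits the precision. The code was tested on simulated data. Python 3.11.15, pandas 2.3.3 and numpy 2.4.6 were used.

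The genes and 31 lists (28 of gene functions, 3 of other cell types) were chosen with earlier results of these data known. Named were the 20 lowest and 20 highest genes at 2-fold or more, list members past 2-fold, all members of the serine and asparagine lists, and up to 3 at each end of the others; a few members between these were added after their values were seen. Alternatives were another added constant, filter, scaling or choice of probe set.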

Additional observations from a re-analysis of the deposited data

Results flagged for a closer look

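MGP, the matrix Gla protein gene, was past 2-fold with siATF4 in opposite directions in the 2 settings. It differed by -1.04 in normal medium, at 43.4 with siATF4, against 90.4 with siCont, and by 1.20 in vemurafenib, at 283 with siATF4, against 122 with siCont. Each value rests on 1 pair of arrays and the difference between the settings was not tested.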

How the results depend on the processing

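Results were recomputed under 8 alternatives for 260 genes named here or past 2-fold. None called at 2-fold changed sign where it still passed the filter. With unshared probe sets only, some called genes fell below the filter and were not counted. Among them ASNS read 0.07, MGP 0.03 and GDF15 -0.05, each opposite in sign to its main value. The 62 higher genes became 34 with 16 added before the log, and 35 when the filter was set to percentile 75. The 51 lower genes became 22 and 33 under these settings, and 28 with the mean of all probe sets. Of the 22, all 22 were among the 51, and of the 34, 33 were among the 62. The other counts, the ATF4 difference and the 6 list medians of amino acid and stress genes moved by less than a 1.5-fold difference, but 3 of these medians changed sign near 0. The transporters were at 0.04 without a filter and 0.08 with unshared probe sets, the asparagine list at 0.02 with the stricter filter and 0.00 with centred arrays, and the stress genes at -0.01 with unshared probe sets. Of 1915 gene values 30, from 29 genes, moved by 1.5 times or more, 14 of them with 16 added and 11 with the mean of all probe sets. No paired analysis was possible because each condition has 1 array, and for the same reason none could be left out. Dim genes limit the sizes, since 11 of the lower and 13 of the higher genes were below the array median on 1 array.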
